A study of Mus musculus with 7 samples.

Results

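The interferon regulatory factors (IRFs) are a family of transcription factors, and 6 of their genes, Irf1, Irf2, Irf4, Irf5, Irf7 and Irf8, were examined for open chromatin in developing mouse B cells. Each gene was taken as its body plus 30 kb on either side (mm10, GENCODE M21), and every peak that touched such a window was a member, which gave 630 of the 647973 deposited peaks. Peaks of the 7 libraries that overlapped by at least 1 bp were merged into regions, and 119 of the 145247 regions lay in the 6 windows. Irf2 held 34 of them, Irf4 25, Irf8 21, Irf1 18, Irf7 11 and Irf5 10.

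The study profiled populations sorted from the bone marrow of adult mice by ATAC-seq, which reads the fragments that a transposase releases from accessible DNA. Its 7 libraries were 7 groups of 1 library each, so no group has a replicate, and no test was run. WT cells were Ergfl/fl, with floxed and undeleted alleles of the ETS-family gene Erg and no Cre, and were sampled as pre-proB, proB and preB cells. Erg KO pre-proB cells were Rag1CreT/+;Ergdelta/delta, in which Cre is driven from Rag1 and so acts in lymphoid cells from the lymphoid progenitor onwards. Rescue cells were Rag1CreT/+;Ergdelta/delta;IgHVH10tar, and so held a rearranged immunoglobulin heavy chain as well as the deletion, and were sampled as pre-proB, proB and preB cells. The peak lists give no measure of Erg expression, so the deletion was not checked here. The stages of the Rescue libraries follow the sample titles. The source names give proB for the Rescue pre-proB library, preB for Rescue proB and pre-proB for Rescue preB, and no result below that uses a Rescue stage is free of that conflict. The 3 pre-proB libraries (WT, Erg KO and Rescue) are set below against the 4 later ones (WT and Rescue proB and preB).

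IRF proteins bind DNA through an amino-terminal domain that recognises repeats of GAAA, alone at interferon response elements or beside an ETS-family partner at composite elements. Irf1 and Irf2 are the activator and the antagonist first described at interferon promoters, and Irf5 and Irf7 are activated by innate sensors and drive type I interferon and inflammatory genes. Irf4 and Irf8 are the lymphoid and myeloid members, which pair with PU.1 and Spi-B. In B cell development they overlap in function at the pre-B stage, where loss of both blocks light chain rearrangement. Irf4 goes on to act in plasma cells, and Irf8 is also required for dendritic cells. Enhancers that act on Irf8 in dendritic cells are known downstream of the gene, and E proteins, which read E-boxes, bind one of them.

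The sequences below are the promoters of Irf4 and Irf8 and, for each gene, the distal region with the highest fold among those open in the pre-proB or in the later libraries only, and that with the largest ratio between the stages among those open in all 7 libraries. The distal regions were picked for their difference between stages, so they cannot show how distal elements compare with promoters, which are given for reference. All are from the RefSeq genome of build GRCm38.p6, on the plus strand, which is the coding strand of both genes, and are 200 bases around the highest summit or the 200 bases before the gene start, shortened where the annotation places a transcribed untranslated end. Capitals mark an E-box (CAGGTG on either strand) or a STAT-type core (TTCNNNGAA). The last Irf8 region was added after its values were seen.
Irf4, 28.0 kb upstream, open in the later libraries only, chr13:30721149-30721348: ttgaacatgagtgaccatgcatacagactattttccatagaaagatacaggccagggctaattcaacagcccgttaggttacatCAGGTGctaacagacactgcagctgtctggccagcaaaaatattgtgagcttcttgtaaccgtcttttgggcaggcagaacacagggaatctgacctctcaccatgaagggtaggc
Irf4, 4.5 kb upstream, open in the pre-proB libraries only, chr13:30744617-30744816: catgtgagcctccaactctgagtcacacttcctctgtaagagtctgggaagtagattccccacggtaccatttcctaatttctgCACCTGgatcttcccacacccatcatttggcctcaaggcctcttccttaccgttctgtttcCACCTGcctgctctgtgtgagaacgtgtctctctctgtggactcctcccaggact
Irf4, promoter, chr13:30749033-30749225: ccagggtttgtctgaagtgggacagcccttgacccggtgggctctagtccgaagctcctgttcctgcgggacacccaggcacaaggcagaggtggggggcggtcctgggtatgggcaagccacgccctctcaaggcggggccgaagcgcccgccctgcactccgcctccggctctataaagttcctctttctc
Irf4, 17.8 kb downstream of the start, higher in pre-proB, chr13:30766977-30767147: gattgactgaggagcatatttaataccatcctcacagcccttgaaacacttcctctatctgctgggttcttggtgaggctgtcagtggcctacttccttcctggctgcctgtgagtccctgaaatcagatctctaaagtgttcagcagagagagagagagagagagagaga
Irf8, 11 kb upstream, higher in the later libraries, chr8:120725294-120725493: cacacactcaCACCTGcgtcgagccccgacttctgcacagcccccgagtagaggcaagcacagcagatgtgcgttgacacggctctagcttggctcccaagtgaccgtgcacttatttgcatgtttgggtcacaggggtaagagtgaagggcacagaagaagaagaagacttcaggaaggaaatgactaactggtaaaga
Irf8, 4.5 kb upstream, open in the pre-proB libraries only, chr8:120731718-120731917: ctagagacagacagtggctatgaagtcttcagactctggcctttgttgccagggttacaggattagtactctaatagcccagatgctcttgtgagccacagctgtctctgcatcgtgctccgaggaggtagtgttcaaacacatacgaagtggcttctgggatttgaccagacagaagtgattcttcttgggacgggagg
Irf8, promoter, chr8:120736158-120736357: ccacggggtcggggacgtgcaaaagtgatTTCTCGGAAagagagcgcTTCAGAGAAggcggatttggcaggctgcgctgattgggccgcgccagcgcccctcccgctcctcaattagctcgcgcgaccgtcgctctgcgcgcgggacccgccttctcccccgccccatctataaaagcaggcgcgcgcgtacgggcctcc
Irf8, 41.0 kb downstream of the start, higher in pre-proB, chr8:120777286-120777485: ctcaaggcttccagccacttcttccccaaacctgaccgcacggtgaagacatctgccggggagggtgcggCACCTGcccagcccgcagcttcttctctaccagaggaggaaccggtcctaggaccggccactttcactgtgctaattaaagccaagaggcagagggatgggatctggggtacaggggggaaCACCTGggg

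The value of a peak is its summit fold, the pileup of fragments at the summit over the background of that library, each with 1 added. Background pileups lay between 3.49 and 4.60, the lowest listed peak had a pileup of 10 to 12 and a fold of 2.32 to 2.63, and lists held 76465 to 105649 peaks. A missing peak therefore says only that no fold above that floor was listed. Where folds were compared as ratios they were first scaled to the median fold of the 46442 regions with a peak in all 7 libraries, and intervals on a fold cover counting error only.

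The number of peaks per window separated the stages at Irf4 and Irf7 and did not at the other 4 genes. The Irf4 window held 12 peaks in the pre-proB list of WT, 12 in that of Erg KO and 11 in that of Rescue, against 17 in WT proB, 20 in Rescue proB, 19 in WT preB and 19 in Rescue preB. The later libraries all lay above the pre-proB libraries, although each later list was shorter than any pre-proB list, and such a pattern held for 7.38% of 18680 protein-coding genes taken with the same flanks. The Irf7 window went the other way, with 9 to 10 peaks in the pre-proB and 7 to 8 in the later libraries, as 23.7% of genes did. The Irf8 window held 19 to 24 peaks in the pre-proB and 19 to 26 in the later libraries, so the groups overlapped. The ranges also overlapped at Irf1 (11 to 13 and 12 to 15), Irf2 (21 to 26 and 19 to 26) and Irf5 (7 to 8 and 7 to 10). With −log10 q of at least 10 the Irf4 ranges met, at 9 to 12 and 12 to 15, and with no flank they overlapped, while the Irf7 ranges overlapped with lists of equal length.

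**Figure D1:**
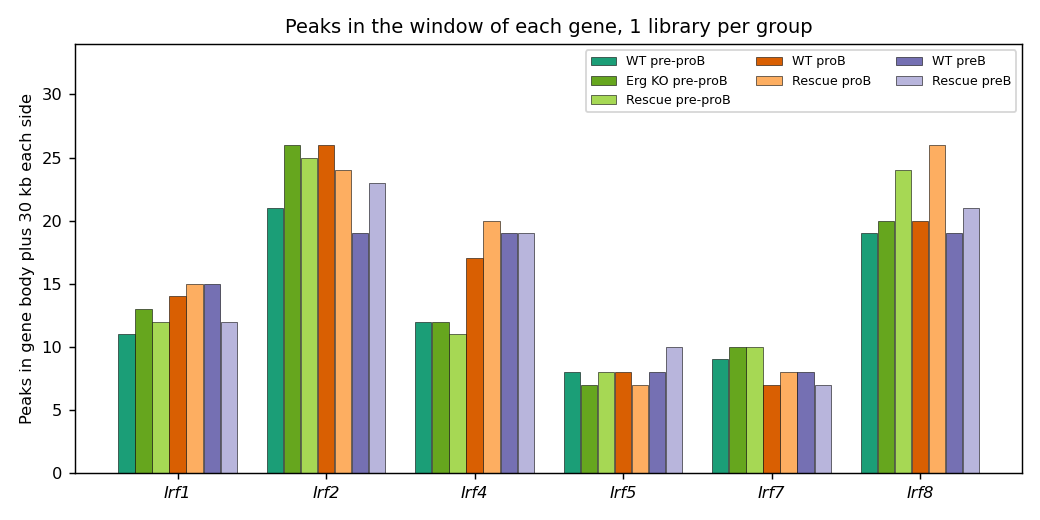
Peaks per window (y axis, count) for each gene (x axis) and library (bar colour, 1 library per group, so no error bar). The Irf4 bars of the 4 later libraries stand at 17 to 20, above the 11 to 12 of the 3 pre-proB libraries, and the Irf8 bars overlap between stages.

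The Irf4 promoter was open at about the same level throughout, and the stages differed at elements on both sides of it. The promoter region (chr13:30748686-30751730) had pre-proB summit folds of 59.3 (WT), 62.7 (Erg KO) and 64.2 (Rescue), and later ones of 49.8 in WT proB, 59.7 in Rescue proB, 62.7 in WT preB and 67.7 in Rescue preB. The ranges of both sets of libraries overlapped. The scaled fold in WT proB was 0.893 times that in WT pre-proB, and that of the Erg KO was 1.02 times that of WT at the pre-proB stage.

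Upstream of Irf4, 4 regions had a peak in all 4 later libraries and in none of the pre-proB libraries. The region 28.0 kb upstream (chr13:30720598-30723494, intergenic) had a fold of 47.3 (41.7 to 53.4) at the proB and 54.8 (48.2 to 62.01) at the preB stage of WT, of 41.4 (35.7 to 47.8) and 47.7 (41.7 to 54.2) at those of Rescue, and no peak in WT, Erg KO or Rescue pre-proB. Its folds stood at the 87.7th to 90.2nd percentile of the later lists, and its summits in these 4 libraries lay within 500 bp of each other. The region 12.4 kb upstream had 7.38 (5.30 to 10.03) in WT proB and 24.3 (20.03 to 29.3) in WT preB, and its Rescue values were 11.4 (8.49 to 14.9) and 23.7 (19.6 to 28.5). After scaling it was 3.45-fold higher in preB than in proB for WT and 1.98-fold for Rescue, where the region 28.0 kb upstream was 1.21-fold and 1.09-fold higher. The regions 23.9 and 18.9 kb upstream were lower, with folds of 7.84 to 10.2 and 7.38 to 11.97.

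The pre-proB libraries had elements of their own at Irf4. The region 4.5 kb upstream had a fold of 15.1 in WT, 21.3 in Erg KO and 18.8 in Rescue pre-proB cells and no peak later. A weaker region 2.0 kb upstream followed it, with 4.85, 5.50 and 6.25 in the same order and no later peak. The region 20.9 kb upstream was open in all 7 libraries, at 39.4, 43.6 and 45.9 in the WT, Erg KO and Rescue pre-proB libraries, against 12.4 in WT proB, 24.1 in Rescue proB, 24.1 in WT preB and 34.2 in Rescue preB. All pre-proB folds exceeded all later folds there, and WT proB was the lowest. The region 17.8 kb downstream of the start, just past the annotated gene end, had 20.7 to 24.2 in the pre-proB and 7.01 to 10.5 in the later libraries.

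An intronic region of Irf4 at 11.7 kb had folds of 41.6 to 44.2 in the pre-proB libraries and 18.2 to 24.7 in the later ones. Its summits were at 11605 to 11704 bp from the start in the pre-proB libraries and at 12294 bp in each later library, so these folds were taken at different positions of a merged region. Regions 37.1 and 43.3 kb from the start, in the lincRNA gene Gm29675, had 40.6 to 47.6 and 11.2 to 12.7 in the pre-proB libraries, and 22.6 to 44.3 and 4.13 to 9.23 in the later ones. At 37.1 kb WT proB, with 44.3, lay within the pre-proB range. At 2 other shared regions the ranges overlapped, with 4.07 to 7.15 and 5.54 to 7.23 at 10.6 kb upstream and 9.47 to 13.96 and 9.60 to 19.5 at 15.3 kb. The other 11 Irf4 regions were each missing from at least 1 library and had folds of 3.09 to 6.98.

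**Figure D2:**
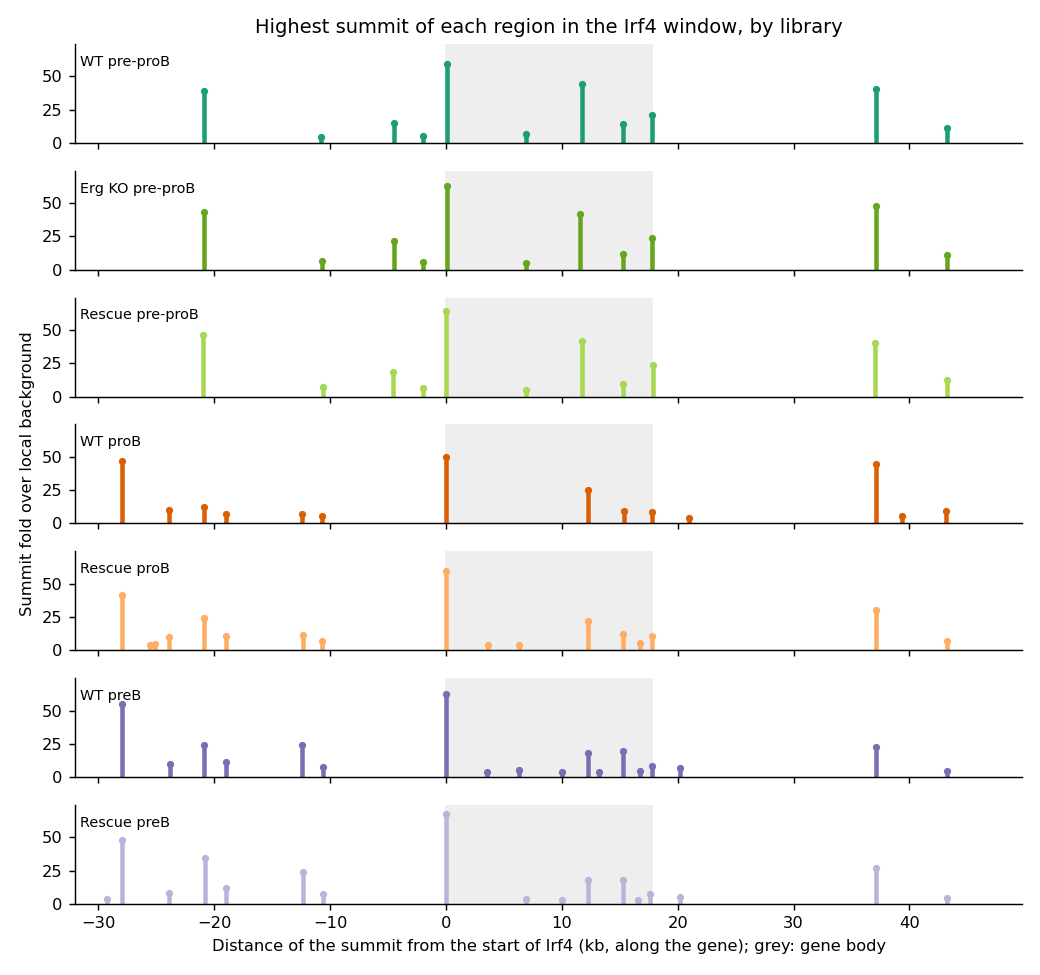
Summit fold over the background of the library (y axis, labelled local background) against distance from the Irf4 start (x axis, kb) for the highest summit of each region in each library (rows, green for pre-proB, orange for proB, purple for preB), with the gene body in grey. The summit 28.0 kb upstream is present at 41.4 to 54.8 in the 4 later rows and missing from the 3 pre-proB rows, while the promoter summit stands at 49.8 to 67.7 in all rows.

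At Irf8 the stages differed in level more than in presence in the lists as deposited, and in both directions within 1 locus. Presence depends on the listing floor, and with −log10 q of at least 10 more Irf8 regions were open in pre-proB only, as counted below. The region 11 kb upstream (chr8:120724707-120726335) had pre-proB folds of 8.92 (6.56 to 11.9) for WT, 4.76 (3.15 to 6.95) for Erg KO and 6.08 (4.24 to 8.46) for Rescue. In the later libraries it had 88.2 (80.5 to 96.5) at the proB and 101 (92.2 to 111) at the preB stage of WT, and 75.5 (67.7 to 83.98) and 84.8 (76.8 to 93.4) at those of Rescue. The later folds lay far above the pre-proB folds, and WT proB had 10.5 times the scaled fold of WT pre-proB. The difference of log2 median scaled fold between later and pre-proB libraries was 4.003, the largest of all member regions open in every library. This region lies within 1 kb of the annotated start of the processed pseudogene Gm18709.

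The region 41.0 kb downstream of the Irf8 start (chr8:120776896-120778339) had the opposite order. Its pre-proB folds were 88.4 (80.5 to 96.9) for WT, 91.8 (83.9 to 100.2) for Erg KO and 96.3 (88.4 to 105) for Rescue, and in WT proB it was 11.6 (8.96 to 14.9) and in WT preB 16.7 (13.1 to 20.8). Rescue proB had 30.1 (25.2 to 35.6) and Rescue preB 25.2 (20.9 to 30.03), which placed both Rescue libraries between the pre-proB and the WT later libraries. Scaled, WT pre-proB was 7.15-fold above WT proB, Rescue pre-proB was 2.83-fold above Rescue proB, and Rescue proB was 2.47-fold above WT proB. The Rescue preB value was 1.31-fold above WT preB, and those counting intervals, taken before scaling, lay just apart at 20.8 and 20.9.

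Other regions around Irf8 were also higher in the pre-proB libraries. The region 16.4 kb upstream had 27.5 in WT, 25.3 in Erg KO and 25.6 in Rescue pre-proB, against 3.32 in WT proB, 8.69 in Rescue proB, no peak in WT preB and 5.57 in Rescue preB. The region at 38.4 kb had 21.1 to 25.2 in the pre-proB libraries and a later peak in Rescue proB alone, at 4.90. The region at 47.6 kb had 31.6 to 37.4 in the pre-proB libraries, no peak in WT proB, 4.90 in Rescue proB, 3.73 in WT preB and 4.13 in Rescue preB. Regions 4.5 kb upstream (15.2 to 17.2) and 50.3 kb downstream of the start (7.37 to 9.47) had peaks in the pre-proB libraries only. The promoter region at the gene start was higher in the pre-proB libraries, at 59.7 to 69.0 against 28.1 to 38.4, which differs from Irf4, where the promoter ranges overlapped. Irf8 has 6 annotated starts, however. The regions at 7.3 and 9.9 kb also lay within 1 kb of a start and were higher in the later libraries. At 7.3 kb the summits were at 5252 to 6204 bp in the pre-proB and 7251 to 7344 bp in the later libraries. Its pre-proB and later folds were therefore taken at different positions of a merged region.

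Regions of Irf8 that were higher in the later libraries were the one 11 kb upstream and others within and just past the gene. The region at 9.9 kb, in an intron but near another annotated start, had 18.8, 14.8 and 13.6 in WT, Erg KO and Rescue pre-proB. In the later libraries it had 46.2 in WT proB, 35.2 in Rescue proB, 55.01 in WT preB and 44.98 in Rescue preB. Its summit was at 11094 bp in WT proB and 11137 bp in Rescue proB but at 9907 bp in WT preB and 9916 bp in Rescue preB, so the proB and preB folds there belong to different summits. In the pre-proB libraries the summit was at 10146 to 10231 bp, so those folds were also taken at another position than the proB folds. The region at 30.5 kb had 10.5 to 16.4 in the later libraries and only 3.40 in Rescue pre-proB among the earlier ones. The broadest region, of 10905 bp across the 3′ part of the gene, merged peaks whose highest summit moved between 14570 and 24105 bp, and its folds of 20.9 to 29.1 compare no single element. All 21 Irf8 regions also lie within the long annotated gene Gm20388, so their assignment to Irf8 rests on distance alone. Other regions open in all libraries were those 20.9 kb upstream, with 7.51 to 8.80 in the pre-proB and 3.51 to 9.60 in the later libraries, at 7.3 kb, with 6.25 to 8.25 and 9.58 to 18.8, and at 42.9 kb, with 25.01 to 30.4 and 11.4 to 16.9. The other 7 Irf8 regions were each missing from at least 1 library and had folds of 2.57 to 14.7.

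**Figure D3:**
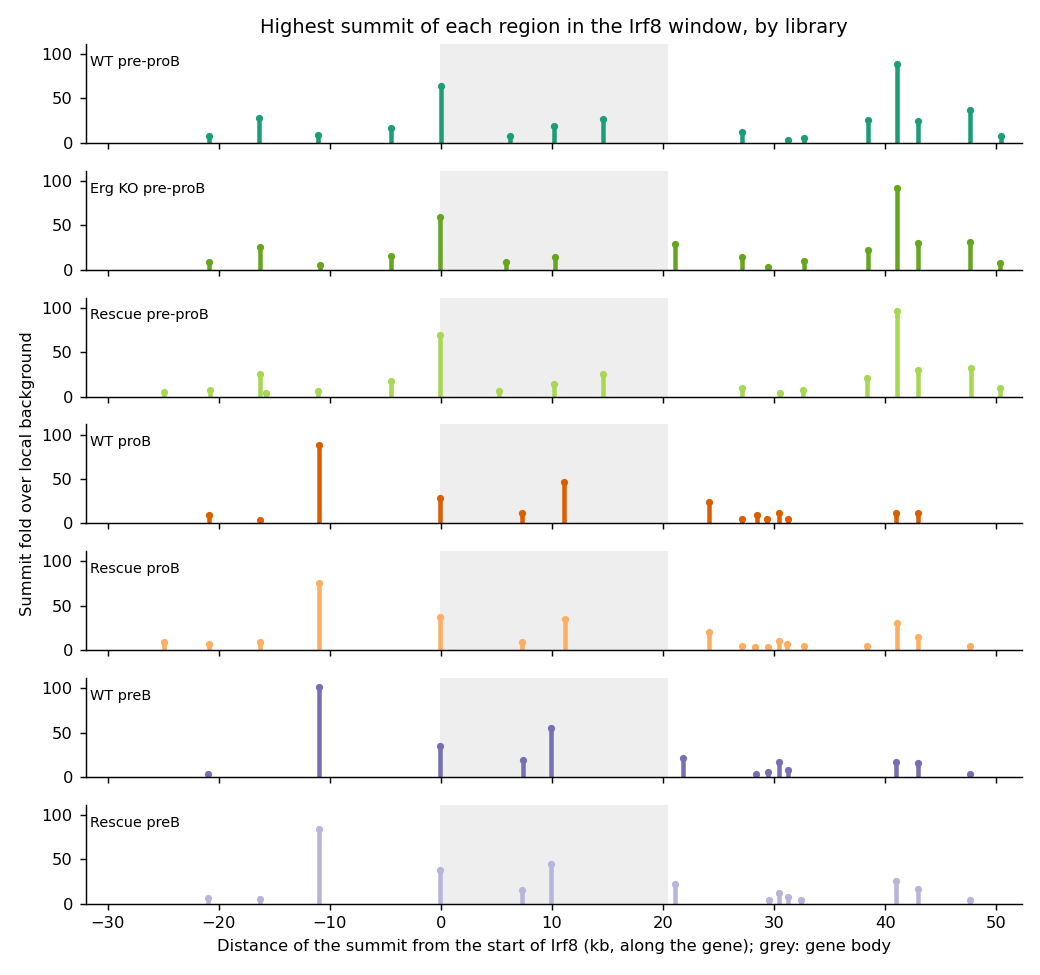
Summit fold over the background of the library (y axis, labelled local background) against distance from the Irf8 start (x axis, kb) for the highest summit of each region in each library (rows coloured by stage), with the gene body in grey. The summit 11 kb upstream stands at 75.5 to 101 in the later rows and 4.76 to 8.92 in the pre-proB rows, and the summit at 41.0 kb stands at 88.4 to 96.3 in the pre-proB rows and 11.6 to 30.1 in the later rows.

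The stage patterns were then counted over the regions of both genes. Irf4 had 4 of 25 regions open in all later and no pre-proB libraries (16%, 95% Wilson interval 6.40 to 34.7%) and Irf8 had 0 of 21 (upper limit 15.5%), beside 5.19% of all regions. The Irf8 count was 2 with lists of equal length, 1 with −log10 q of at least 10 and 0 to 1 with any 1 library left out, while the Irf4 count was 4 to 5 in these settings and 0 with no flank. Regions open in all pre-proB and no later libraries were 2 at Irf4 and 2 at Irf8, beside 11.5% of all regions, and with −log10 q of at least 10 the Irf8 count was 6. With folds scaled and a missing peak set below any fold, every pre-proB fold exceeded every later fold in 10 of 21 Irf8 regions (47.6%, 28.3 to 67.6%) and in 6 of 25 Irf4 regions (24%, 11.5 to 43.4%), beside 29.2% of all regions. The reverse held in 6 Irf8 regions (28.6%, 13.8 to 49.96%) and 4 Irf4 regions (16%, 6.40 to 34.7%), beside 17.2%. Without WT proB that Irf4 count was 7, beside 19.6% of all regions. For the other changed settings of this paragraph no share of all regions is given here. Of these Irf4 and Irf8 intervals, only that for Irf4 regions open in the later libraries alone missed the whole-list share, and it lay above it. The difference between both genes was not tested, because neighbouring regions are not replicates. With Rescue stages read from the source names, 0 regions of either gene met any of these patterns.

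Over the 6 windows, 46 of 119 regions were open in all 7 libraries (38.7%), beside 32% of all regions. Only in the pre-proB libraries were 10 open (8.40%, beside 11.5%), and only in the later libraries 9 (7.56%, beside 5.19%). Every scaled pre-proB fold was above every scaled later fold in 35 regions (29.4%, beside 29.2% of all regions) and below in 25 (21%, beside 17.2%). Scaling moved some of these, such as the Irf2 promoter, which is among the 35 although its folds as listed overlapped. The member shares lay near those of the genome.

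**Figure D4:**
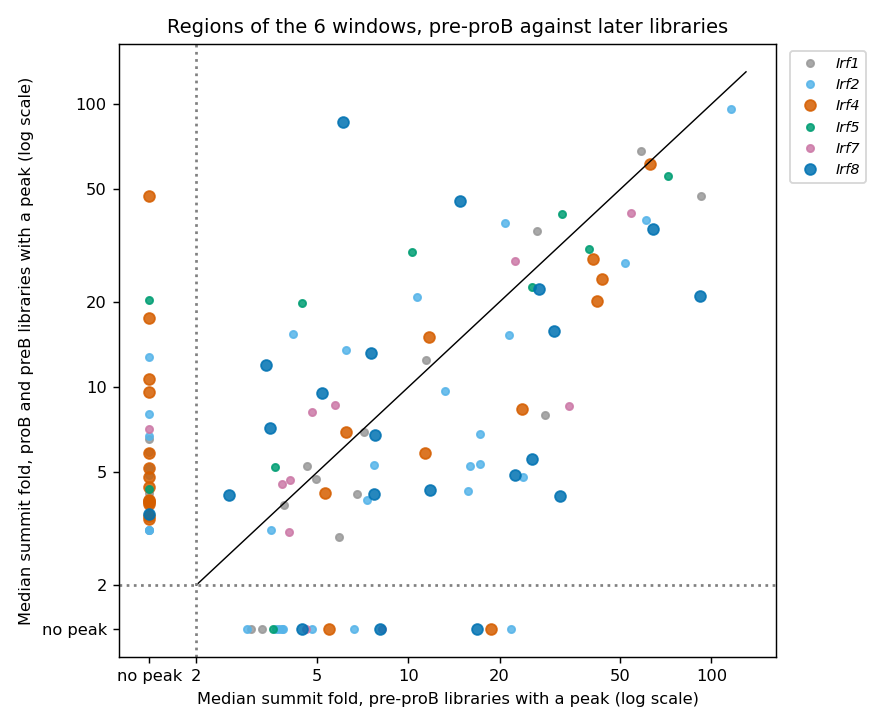
Median summit fold over the proB and preB libraries with a peak (y axis, log scale) against that over the pre-proB libraries with a peak (x axis, log scale) for the 119 regions, 1 point each, coloured by gene, with the line of equal fold. Points in the strips marked no peak were absent from every library on that axis, and the Irf8 point at 6.08 and 86.5 is the region 11 kb upstream.

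Beside the Irf8 values stood promoters of genes that mark other cells. No share over all promoters is given beside the counts and sums below, so they cannot be set against promoters at large. The pre-proB lists were also the longer ones, with 95662 to 105649 peaks against 76465 to 91668. Of 10 plasmacytoid dendritic genes, 10 had a promoter peak in each pre-proB library and 8 to 9 in the later ones. Their summed promoter folds were 445 to 485 and 213 to 347. Siglech, Bst2, Ccr9, Cox6a2, Klk1, Pacsin1 and Lair1 were higher in the pre-proB libraries, and the Runx2 ranges overlapped. Tcf4 went the other way, with 59.2 to 62.4 in the pre-proB and 62.8 to 143.6 in the later libraries. Zeb2 did so too, with 28.77 to 31.99 and 35.26 to 60.04. Of 10 conventional dendritic and myeloid genes, 7 to 8 were open in the pre-proB and 5 to 7 in the later libraries, with sums of 281 to 317 and 152 to 275, and the granule genes Elane and Ctsg had no peak in any library. Clec9a, a marker of conventional dendritic cells, had 81.6, 77.5 and 93.8 in the WT, Erg KO and Rescue pre-proB libraries, no peak in WT proB or preB, and 31.6 in Rescue proB and 29.3 in Rescue preB. Other genes of that list had another order, with Zbtb46 at 8.92 to 15.2 in the pre-proB and 35.6 to 61.5 in the later libraries, Csf1r at 7.37 to 8.94 and 12.9 to 22.5, and Xcr1 at 29.1 to 31.4 and, outside WT proB, where it had no peak, 25.2 to 32.4. Of 9 B lineage genes, 7 to 9 were open in the pre-proB and 9 in each later library, with sums of 218 to 234 and 509 to 600.2. Cd79a, Cd79b, Igll1, Pax5, Ebf1 and Pou2af1 were higher in the later libraries. The ranges overlapped for Vpreb1 (58.0 to 69.0 and 47.8 to 67.7), Blnk (45.9 to 49.7 and 39.6 to 47.5) and Cd22 (30.4 to 40.4 and 18.9 to 38.4). Of 10 T and NK genes, 5 to 7 and 4 to 7 were open, with sums of 119 to 157 and 71.2 to 104, and Cd3e and Ncr1 had none. The gates removed cells with NK1.1 or CD11c, and the part that a mixture of cells has in the values of Irf8 was not tested. Fewer cells with an element open and less opening per cell cannot be told apart in such bulk libraries.

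Irf1, the activator, had an open promoter in all libraries, with folds of 55.7 to 62.7 in the pre-proB and 53.2 to 73.9 in the later ones. Its highest region lay 6.4 kb upstream, over the microRNA gene Mir7671, and had 92.5 in WT, 83.0 in Erg KO and 97.2 in Rescue pre-proB against 37.5 in WT proB, 43.9 in Rescue proB, 52.8 in WT preB and 51.2 in Rescue preB. The pre-proB folds were all higher. No Irf1 region had a peak in all libraries of either set and in none of the other.

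Irf2, the antagonist and the longest of the genes, had its highest fold at the promoter, 110 in WT, 116 in Erg KO and 140 in Rescue pre-proB, 85.7 in WT proB, 96.9 in Rescue proB, 94.7 in WT preB and 112 in Rescue preB. These ranges overlapped. Of its 34 regions 5 were open in the pre-proB libraries only (14.7%, 6.45 to 30.1%, beside 11.5% of all regions), led by an intronic region at 38.6 kb with 21.9 in WT, 19.8 in Erg KO and 25.9 in Rescue. Another 4 were open in the later libraries only (11.8%, 4.67 to 26.6%, beside 5.19%), the highest 29.2 kb upstream with 9.05 to 17.1. The intronic region at 64.5 kb had no peak in WT pre-proB, 4.58 in Erg KO and 3.75 in Rescue pre-proB, and then 14.0 in WT proB, 10.2 in Rescue proB, 33.5 in WT preB and 16.9 in Rescue preB.

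Irf5, which acts downstream of Toll-like receptors, had 10 regions, of which 0 had all scaled folds higher in the pre-proB libraries (upper limit 27.8%, beside 29.2% of all regions) and 4 in the later ones (40%, 16.8 to 68.7%, beside 17.2%). Its region 13.1 kb upstream had 12.6 in WT, 10.3 in Erg KO and 9.65 in Rescue pre-proB, against 39.1 in WT proB, 23.6 in Rescue proB, 32 in WT preB and 27.9 in Rescue preB. An intronic region at 3.6 kb had 4.46 in WT pre-proB, no peak in Erg KO or Rescue pre-proB, and 12.9 to 28.6 later. The highest region, 2.3 kb upstream, had 69.8 to 73.3 in the pre-proB and 36.7 to 71.0 in the later libraries, and a region 14.4 kb upstream had a peak in WT proB alone, at 20.3. The promoter region had 30.8 to 34.8 and 34.9 to 44.8.

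Irf7, the inducer of type I interferon genes, had its highest fold in the region that covers its promoter, with 50.9 to 55.8 in the pre-proB and 37.3 to 51.9 in the later libraries. The summits there were at 1373 to 1439 bp from the start in the pre-proB and 605 to 707 bp in the later libraries, so these folds differ in position. The region 2.6 kb upstream had 33.9 in WT, 32.8 in Erg KO and 40.7 in Rescue pre-proB, against 9.78 in WT proB, 11.1 in Rescue proB, 6.14 in WT preB and 7.43 in Rescue preB. One region 20.7 kb upstream was open in the pre-proB libraries only, at 7.15 to 10.3, and 1 region 9.1 kb upstream in the later libraries only, at 5.79 to 7.84. Of the 11 Irf7 regions 5 lay at the promoter of another gene.

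The first comparison across libraries asked how the windows differ between successive stages in WT. Without a WT proB peak were 20 of 80 WT pre-proB peaks (25%, 16.8 to 35.5%, beside 34.1% of the whole list), and without a WT pre-proB peak were 23 of 92 WT proB peaks (25%, 17.3 to 34.7%, beside 31.9%). Between WT proB and preB, 18 of 92 proB peaks had no preB peak (19.6%, 12.7 to 28.8%, beside 26.7%) and 15 of 88 preB peaks had no proB peak (17%, 10.6 to 26.2%, beside 10.7%). Of those 15, 7 were in the Irf4 window, out of 19 Irf4 peaks. All 4 member intervals held the whole-list share.

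Among the 55 member regions with a peak in both WT pre-proB and WT proB, 15 were at least 2-fold higher in pre-proB (27.3%, 17.3 to 40.2%), where 14.6% of all such regions were. Only 4 were 2-fold higher in proB (7.27%, 2.86 to 17.3%, beside 15.2%), 2 at Irf5 and 2 at Irf8. The 15 regions were 5 at Irf2, 5 at Irf8, 2 at Irf1, 2 at Irf4 and 1 at Irf7. The interval for pre-proB lay above the share of all regions, but it treats neighbouring regions as independent, and the same step in Rescue gave 12 of 62 (19.4%, 11.4 to 30.9%, beside 21.1%), with no such excess. Of 64 regions with a peak in WT proB and WT preB, 5 were 2-fold higher in preB (7.81%, beside 6.11%), and 3 of them were at Irf4, 20.9 and 12.4 kb upstream and 15.3 kb downstream of its start. In the other direction 2 of 64 were 2-fold higher in proB (3.12%, beside 7.63%), both at Irf8.

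Deletion of Erg was asked about at the pre-proB stage. Erg KO cells lacked 5 of the 80 WT peaks (6.25%, 2.70 to 13.8%, beside 6.88%) and had 10 of 88 peaks that WT lacked (11.4%, 6.29 to 19.7%, beside 13.6%). Of 69 member regions with a peak in both, 0 were 2-fold higher in Erg KO (beside 0.192%) and 0 were 2-fold higher in WT (beside 0.326%). The median log2 ratio of Erg KO over WT was 0.00, and the ratios ran from 0.516 at the Irf8 region 11 kb upstream to 1.64 at the Irf8 region at 32.7 kb. At the Irf4 region 4.5 kb upstream and the Irf8 region at 41.0 kb, Erg KO had 21.3 and 91.8 where WT had 15.1 and 88.4.

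The comparison of Erg KO with Rescue pre-proB, which differ by the rearranged heavy chain, gave 5 of 88 Erg KO peaks missing from Rescue (5.68%, 2.45 to 12.6%, beside 6.57%) and 7 of 90 missing from Erg KO (7.78%, 3.82 to 15.2%, beside 9.81%). Rescue pre-proB lacked 4 of 80 WT pre-proB peaks (5.0%, 1.96 to 12.2%, beside 5.88%), and WT lacked 12 of 90 Rescue peaks (13.3%, 7.79 to 21.9%, beside 15.6%). None of 70 shared regions was 2-fold higher in Rescue (0, beside 0.205%) or in WT pre-proB (0, beside 0.47%). Of 73 regions shared by Erg KO and Rescue pre-proB, 0 were 2-fold higher in Rescue (beside 0.0589%) and 0 in Erg KO (beside 0.0906%). Rescue and Erg KO each share the WT pre-proB library as their comparison.

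The Rescue proB library held most of the WT proB peaks of the windows. Only 9 of 92 WT proB peaks were missing from Rescue proB (9.78%, 5.23 to 17.6%), below the 20.6% of the whole list, and 20 of 100 Rescue proB peaks were missing from WT proB (20%, 13.3 to 28.9%, beside 19.8%). Of the 20, 6 were in the Irf4 and 6 in the Irf8 window. Of 68 shared regions 3 were 2-fold higher in Rescue proB (4.41%, beside 4.65%), among them the Irf8 regions at 41.0 kb and 16.4 kb upstream, and 2 were 2-fold higher in WT proB (2.94%, beside 7.38%), 1 at Irf5 and 1 at Irf8. At preB, 8 of 88 WT peaks were missing from Rescue (9.09%, 4.68 to 16.9%, beside 8.02%) and 10 of 92 Rescue peaks from WT (10.9%, 6.01 to 18.9%, beside 17.9%), and of 71 shared regions 1 was 2-fold higher in Rescue (1.41%, beside 1.6%) and 1 in WT (1.41%, beside 1.79%), both at Irf2.

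Within Rescue, the Irf4 window held the largest number of the peaks that proB had and pre-proB lacked. Of 100 Rescue proB peaks 26 were missing from Rescue pre-proB (26%, 18.4 to 35.4%, beside 21.8%), and 11 of the 26 were in the Irf4 window, out of 20 Irf4 peaks. In the other direction 21 of 90 Rescue pre-proB peaks were missing from Rescue proB (23.3%, 15.8 to 33.1%, beside 33.1%). Between Rescue proB and preB, 17 of 100 (17%, 10.9 to 25.5%, beside 19.1%) and 7 of 92 (7.61%, 3.73 to 14.9%, beside 12.9%) were missing from the other list. Of 62 regions shared by Rescue pre-proB and proB, 7 were 2-fold higher in proB (11.3%, 5.58 to 21.5%, beside 8.93%), 4 of them at Irf8. Of 71 shared by Rescue proB and preB, 0 were 2-fold higher in preB (beside 2.44%) and 2 in proB (2.82%, beside 3.84%), both at Irf2.

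**Figure D5:**
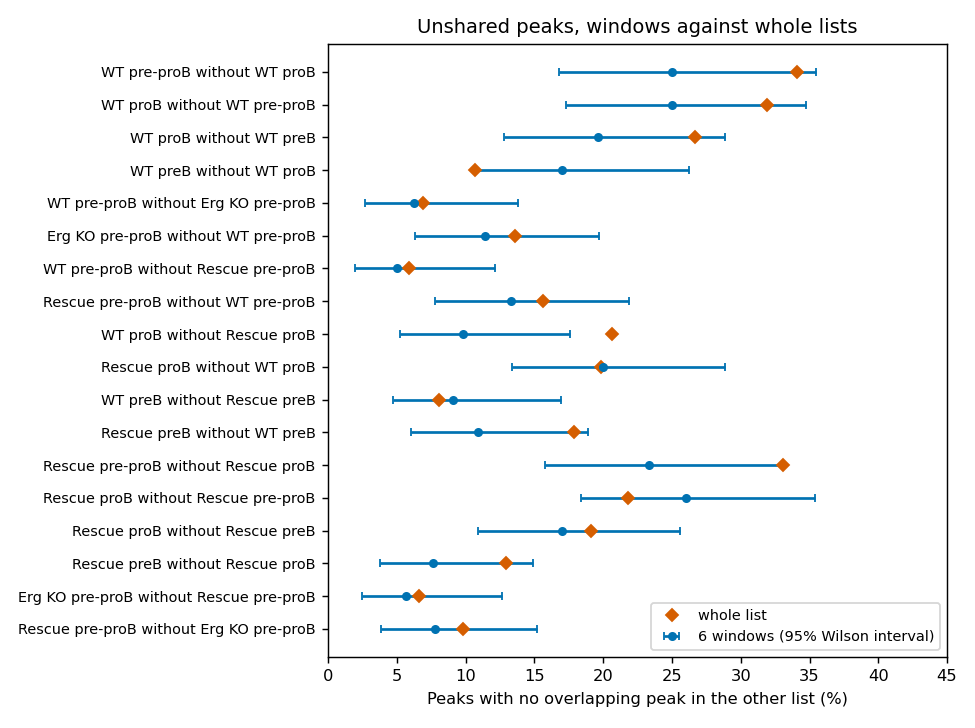
Share of peaks without an overlapping peak in the other list (x axis, percent) for each ordered pair of libraries (rows), for the 6 windows (circles with 95% Wilson intervals, counting error only) and for the whole list (diamonds). The interval of WT proB peaks missing from Rescue proB, 5.23 to 17.6%, lies below its diamond at 20.6%.

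Motif letters were searched on both strands in the 250 bp around the highest summit of each region. The interferon response core, GAAA repeated after a gap of 2 bases, was in 7 of 119 member regions (5.88%) and 5.89% of all regions. The ETS-IRF composite, GGAA and GAAA with the same gap, whose letters can overlap those of the interferon core, was in 10 (8.4% and 5.79%), the STAT-type core TTCNNNGAA in 10 (8.4% and 7.42%), the RUNX core TGTGGTT in 11 (9.24% and 12.3%), the EBF core in 2 (1.68% and 1.73%) and the E-box CAGGTG in 34 (28.6% and 23.2%). The region 20.9 kb upstream of Irf4 held 1 composite and 1 E-box. The Irf8 region at 41.0 kb held 3 E-boxes in its 250 bp, of which 2 fall in the stretch printed above, and was the only member with 3, as 0.431% of all regions had. The Irf8 promoter printed above held 2 STAT-type cores, and a second Irf8 promoter sequence held 0. At least 1 such core was present in 8.3% of 32851 promoters of 300 bp. Such matches are letters and not shown binding.

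Genes of the wider pathway were read by promoter peak. The promoters of Irf3 and Irf9, of all 8 DNA-binding partners, of all 10 genes of interferon receptor signalling and of all 10 genes linked to the light chain stage had a peak in every library. Any peak within 1 kb of any annotated start counted, and no share over all promoters is given beside these counts. Of the partners, Spib, which encodes an ETS factor that pairs with Irf4 and Irf8, had 48.1 in WT, 49.8 in Erg KO and 55.9 in Rescue pre-proB, 83.3 in WT proB, 126 in Rescue proB, 174.5 in WT preB and 165 in Rescue preB. Its folds were therefore ordered by stage, as were those of Ikzf3, with 8.61 to 9.47 in pre-proB, 12.5 to 16.9 in proB and 27.2 to 32.8 in preB. Spi1 had the same order, with 36.5 to 45.2, 68.1 to 69.3 and 93.7 to 97.5. Ikzf1 and Batf went the other way, with 80.6 to 86.1 and 20.7 to 29.7 in the pre-proB and 35.3 to 50.5 and 12.1 to 14.3 in the later libraries. For the partners Batf3, Tcf3 and Junb the pre-proB and later ranges overlapped. Of 10 sensors and adaptors 9 were open in every library, the exception being the RNA sensor gene Tlr7, with 31.4 to 38.4 in the pre-proB libraries, 5.72 in WT proB, 6.46 in Rescue proB, no peak in WT preB and 6.40 in Rescue preB. Of 10 interferon-stimulated genes 8 were open in every library, and Oas1a had a peak in 3 libraries and Ifi44 in 6.

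As a summary of each window, the summed fold of its regions relative to the summed fold of its list, times 1000000, was 131 to 145 at Irf4 in the pre-proB libraries and 152 to 184 in the later ones, which did not overlap, as was so with the later libraries higher for 37.5% of protein-coding genes and with the pre-proB libraries higher for 25.7%. At Irf8 it was 185 to 206 and 164 to 191, which did overlap. At Irf5 it was 90.1 to 96.6 and 116 to 138, again without overlap. Over the 7 libraries the window signals most like that of Irf4 among 5639 candidate genes were those of Ddah2 (Pearson r = 0.998 on the log2 scale), Ly6g6d and Ly6g6e (both 0.988, overlapping windows), Hyal1 (0.986) and Ccdc57 (0.986). Among 7507 candidates the signals most like that of Irf8 were those of Kcnh6 (0.969), BC004004 (0.957), Ankrd11 (0.941), Med13 (0.941) and Pafah1b2 (0.941). These are the highest of many correlations over 7 points that share libraries and depth.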

How the data were processed

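Open chromatin was read from the deposited MACS2 peak lists, 1 per library, with no replicate. The authors aligned reads to mm10 with Bowtie2 and called peaks with MACS2, and the labels also name CASAVA 1.8.2 and Picard. For the aligner and caller, versions, options, duplicate handling and any transposase shift were not given in the sources used. The methods mention sonication where the labels give Tn5 tagmentation. In the deposited lists the authors' score column holds the −log10 q multiplied by 10 and truncated, the fold column is the ratio of summit pileup to background with 1 added to each, and the −log10 p and −log10 q columns are as MACS2 wrote them. Per library, 100% of the folds were whole multiples of 1 fragment within 0.02, which gave the background pileups. An offset column of the deposited lists placed the summits.

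Peaks overlapping by at least 1 bp were merged into regions, the highest fold per library was kept, and folds were scaled by the median over regions open in all 7 libraries. Groups follow the sample titles. Shares carry 95% Wilson intervals and folds carry Poisson intervals, for counting error only. With 1 library per group no p-value was computed. The overlap, merging and fold calls were tested on simulated peaks. Named items were the 6 genes, any Irf4 or Irf8 region by distance, for the other genes the promoter, the highest region and regions missing from some libraries, and the 5 genes with the most similar window signal. From the gene lists, 2 genes are not reported here and were left out of the counts and sums. The genes, lists and tests were chosen with earlier results of these data known. Alternatives changed list length, q, overlap, window, promoters of neighbours, Rescue stages, scaling and threshold, and leaving out each library was added after seeing the data. Analyses ran in Python 3.11.15 with pandas 2.3.3, numpy 2.4.6 and statsmodels 0.14.6. Promoter sequence was found for all 6 genes in the RefSeq table.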

Additional observations from a re-analysis of the deposited data

How the results depend on the processing

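Of 314 recomputed shares and stage pattern counts, 238 kept their size under the alternatives and 76 did not. Keeping size meant staying within the 95% interval of the reported share, or within 1.5 times of the reported count. Of 245 recomputed counts of peaks per window, 133 stayed within 1.5 times and 112 did not. Among those 112, 48 came with 100 kb on each side and 46 with no flank, settings that change the window itself. The 15 regions 2-fold higher in WT pre-proB than WT proB gave shares of 18.2 to 36.4% under 5 alternatives, each above the share of all regions, 11.8 to 23.3%. No paired analysis was run. Pairing WT with Rescue by stage would rest on Rescue stages on which sample titles and source names disagree. Leaving out each library in turn, an alternative chosen after seeing the data, gave 4 to 5 Irf4 regions open in the later libraries only, 4 to 7 with later folds higher (7 without WT proB), 6 to 7 with pre-proB folds higher and 2 open in pre-proB only. At Irf8 it gave 0 to 1 (1 when a pre-proB library or Rescue preB was left out), 6 to 7, 10 to 11 and 2 to 3. The Irf4 peak counts kept the later libraries apart from the pre-proB libraries with equal lists (15 to 19 against 10 to 12), 100 kb (38 to 44 against 25 to 26) and without promoters of other genes, met at 12 with −log10 q of at least 10 and overlapped with no flank. The Irf7 counts overlapped with equal lists, with −log10 q of at least 10 and with no flank, and with equal lists those of Irf2 (17 to 18 against 19 to 21) and Irf5 (5 to 6 against 7 to 10) separated. Depth limits the text through the lowest listed fold, under which a region counts as missing. The cause of the changes below was not tested, beyond what the settings themselves change. Most shares and counts below stand without the share of all peaks or regions under the same setting. They cannot be read as changes particular to these genes.

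With every list shortened to 76465 peaks, WT proB peaks missing from WT preB came to 10%, Erg KO peaks missing from WT to 4.55% and from Rescue pre-proB to 1.52%, and 2 Irf8 regions were open in the later libraries only. With −log10 q of at least 10, Erg KO peaks missing from WT came to 6.06% and from Rescue pre-proB to 0, WT pre-proB peaks missing from Rescue to 0 and Rescue proB peaks missing from WT to 11.4%, while 6 Irf8 regions were open in pre-proB only and 1 later only. A reciprocal overlap of 50% raised the missing share to 46.2% and 53.3% between WT pre-proB and proB, 30.4% and 27.3% between WT proB and preB, 12.5% and 22.2% between WT and Rescue pre-proB, 21.7% for WT proB without Rescue, 18.2% and 21.7% between WT and Rescue preB, 40% and 46% between Rescue pre-proB and proB, and 26% and 19.6% between Rescue proB and preB. The WT proB share missing from Rescue then stood beside 28.6% of the whole list.

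With no flank, WT proB peaks missing from WT pre-proB came to 11.1%, Rescue proB from Rescue pre-proB to 15.8%, and Rescue pre-proB from Erg KO to 2.7%. The Irf4 regions open only in pre-proB or only later came to 0 and 0, those with all pre-proB folds higher to 2 and all later folds higher to 0, and at Irf8 the counts were 0 for pre-proB only, 1 for pre-proB higher and 2 for later higher. The 2-fold shares higher in WT proB than preB and in Rescue than WT proB came to 0 and 0. With 100 kb on each side, Irf4 had 9 regions open later only, 10 with pre-proB and 11 with later folds higher, and Irf8 had 4 open in pre-proB only, 3 later only, 18 with pre-proB and 12 with later folds higher.

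With Rescue stages from the source names, the missing share was 22.5% and 23.9% between WT and Rescue pre-proB, 26.1% and 32.2% between WT and Rescue proB, 26% for Rescue preB without proB, and 23.9% and 25% between Erg KO and Rescue pre-proB. Under that reading every stage pattern of Irf4 and Irf8 came to 0 regions (the 4 patterns at Irf4 and 3 at Irf8 that had any).

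For the 2-fold shares, no scaling gave 0 for WT preB over Rescue preB. A difference of 25 percentile points gave 1.56% for WT preB over proB, 10.9% for WT proB over preB and 0 for WT preB over Rescue preB. A threshold of 1.5-fold gave 18.2% for WT proB over pre-proB, 23.4% for WT preB over proB, 14.1% for WT proB over preB, 5.8% for WT pre-proB over Erg KO (2.63% of all regions), 16.2% for WT proB over Rescue, 11.3% for WT preB over Rescue, 22.6% for Rescue proB over pre-proB, 40.3% for the reverse, 11.3% for Rescue preB over proB and 16.9% for the reverse. Without promoters of other genes, Rescue preB over WT preB came to 0.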
